A study of Mus musculus with 6 samples.

Results

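The mitochondrial chaperones and proteases described here are 10 genes, picked out of the 49315 genes of the count table by a list of mouse symbols and not by a threshold on their values. They are the chaperones Hspd1, Hspe1, Hspa9, Dnaja3 and Trap1, the proteases and protease subunits Lonp1, Clpp, Clpx and Htra2, and the transcription factor Atf5. All 10 were found in the table, and all 10 had enough reads for a test. Their RNA was measured by RNA-seq in RAW264.7 cells, a mouse macrophage-like line listed as wild type, after 24 h with SKI-II at 4 μg/mL or with an equal volume of its vehicle DMSO. SKI-II is best known for inhibiting sphingosine kinases. There were 3 libraries per condition, made from poly(A)-selected RNA. The study's methods refer, for treatment and extraction, to a protocol done with biological replicates, while the sample labels do not say which libraries came from separate cultures. The tests measure the spread between these libraries, which may in part be technical.

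Almost all mitochondrial proteins are made in the cytosol and threaded unfolded into the organelle. The matrix Hsp70, encoded by Hspa9, pulls them in, and the chaperonin made of Hsp60 (Hspd1) and Hsp10 (Hspe1) folds many of them. Proteins that stay misfolded are degraded by LONP1 or by the CLPXP protease, in which the unfoldase CLPX feeds the barrel-shaped peptidase CLPP. When the matrix holds too much misfolded protein, cells can start a mitochondrial unfolded protein response, in which the transcription factors ATF4, CHOP (Ddit3) and ATF5 raise genes of this machinery. ATF5 is controlled to a large extent at translation, so its RNA level does not give its protein level.

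The libraries held between 12495957 and 20050677 counts, and the 10 genes together took 0.325%, 0.362% and 0.350% of the counts in DMSO replicates 1, 2 and 3 and 0.336%, 0.354% and 0.374% in SKI-II replicates 1, 2 and 3. Of 10 macrophage markers, all tested, Csf1r, Cd68, Spi1, Ptprc and Tyrobp did not pass the test, Adgre1, Itgam, Lyz2 and Mrc1 fell and Fcgr1 rose. The summed count of 8 markers of other cell types was 8 to 26 per library, with 3 of them at 0 throughout. The share of counts on the 13 mitochondrially encoded mRNAs was 1.07% to 1.24% with DMSO and 1.37% to 1.70% with SKI-II, without overlap. Most of these counts were on mt-Co1 (109060 to 258755 per library), whose groups overlapped (log2 fold change 0.28, edgeR adjusted p = 0.394). In contrast, mt-Nd3, mt-Nd4l, mt-Co2, mt-Co3, mt-Atp6 and mt-Atp8 each had at most 42 counts in a library. Of the 10 tested, 3 were higher (30.0%) and none lower, against 18.4% and 19.7% of all tested genes. The part of the shift in share in the results below was not tested.

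With SKI-II the 10 genes split in direction. Hspd1, Hspe1, Trap1 and Htra2 fell to between 0.625 and 0.646 of their DMSO level, Lonp1 rose 1.89-fold and Atf5 rose 2.30-fold, while Hspa9, Dnaja3, Clpp and Clpx did not pass the test. In the quasi-likelihood test of edgeR at an adjusted p below 0.05, 4 of 10 members were lower against 19.7% of the 12274 tested genes, and 2 of 10 were higher against 18.4% of tested genes. The share of members that were lower was above that of all genes, while the share that were higher was near it. The first difference rests on 10 genes, among them the neighbours Hspd1 and Hspe1, and was not tested. A log2 fold change past 1 at the same adjusted p was reached by 1 member, Atf5, against 8.28% of tested genes in the upward direction, and by no member in the downward direction, where the share was 7.44%. The median log2 fold change was -0.17 over the members and 0.0038 over all tested genes. Every SKI-II library lay below every DMSO library for 5 of the 10 members and above for 2, where these shares were 25.5% and 24.8% of all tested genes. In these bulk samples, fewer cells of a type and less RNA per cell cannot be told apart.

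**Figure D1:**
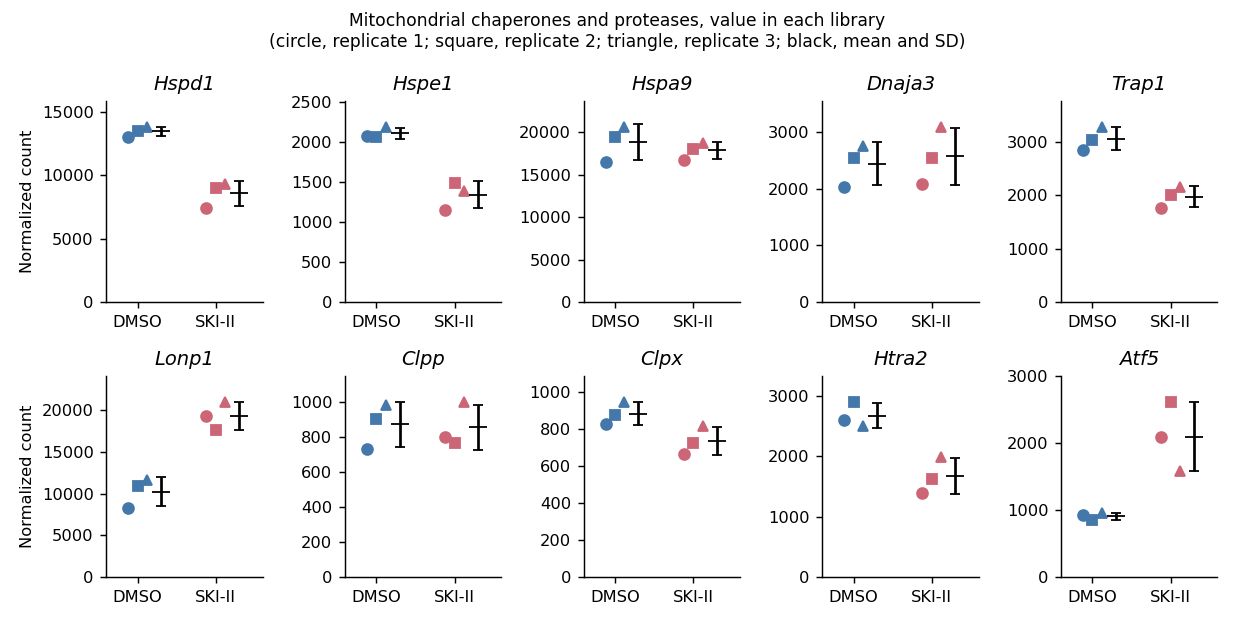
Normalized count (y axis, from 0) of each of the 10 genes in the 3 DMSO and the 3 SKI-II libraries (x axis), with black marks for the mean and SD of 3 libraries. The groups do not overlap for Hspd1, Hspe1, Trap1, Clpx and Htra2, lower with SKI-II, and for Lonp1 and Atf5, higher with SKI-II.

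Hspd1 and Hspe1 encode the barrel and the lid of the matrix chaperonin. They lie head to head on mouse chromosome 1 in GRCm38, Hspd1 on the minus strand (55077835 to 55088243) and Hspe1 on the plus strand (55088132 to 55091307), so that their first exons share 112 bases. The 300 bases around the RefSeq start site of Hspe1, from 250 before it, are shown because both genes fell and this window also covers bases upstream of a second RefSeq start site of Hspd1. The capitals mark 2 overlapping matches to a heat shock element of 3 units, the kind of site that the heat shock factor HSF1 binds, searched on either strand as GAA, TTC and GAA with any 2 bases between neighbours.
Hspe1 promoter window, chr1:55087898-55088197, plus strand, GRCm38.p6, RefSeq: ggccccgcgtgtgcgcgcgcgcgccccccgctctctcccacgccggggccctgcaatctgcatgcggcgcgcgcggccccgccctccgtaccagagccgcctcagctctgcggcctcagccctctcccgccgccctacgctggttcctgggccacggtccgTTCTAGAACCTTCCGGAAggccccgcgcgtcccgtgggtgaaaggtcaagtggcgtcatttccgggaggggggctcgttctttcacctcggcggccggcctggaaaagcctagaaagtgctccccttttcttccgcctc
With the start site as base 0, the matches began at bases -89 and -84. Such a match was present in 0.603% of the 32817 distinct promoter windows of the same length in RefSeq. Of the 8 members with a window in that table, all except Hspa9 and Htra2, only Hspd1 and Hspe1 held it, through the same bases. For Hspd1 this was the window of the start site at 55087932, and the window of its start site at 55088243 held no match. A match is a description of the letters and not a measured binding site.

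Hspd1 held 13063, 13539 and 13816 normalized counts in DMSO replicates 1, 2 and 3 and 7415, 8978 and 9329 in SKI-II replicates 1, 2 and 3. A normalized count is the raw count after TMM scaling, expressed at the mean effective library size. All 3 SKI-II libraries were lower than all 3 DMSO libraries, and SKI-II replicate 1 was the lowest. The log2 fold change was -0.65 (SE, the standard error, 0.14, 95% confidence interval, CI, -0.96 to -0.35, adjusted p = 0.00467). Every adjusted p comes from the quasi-likelihood F test of edgeR, adjusted over all tested genes by the Benjamini-Hochberg method. Hspe1 held 2082, 2068 and 2190 normalized counts with DMSO and 1155, 1488 and 1394 with SKI-II, also without overlap. Its log2 fold change was -0.65 (SE 0.13, 95% CI -0.93 to -0.37, adjusted p = 0.00303).

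The ratio of the chaperonin partners moved little. Hspe1 had 0.159, 0.153 and 0.159 counts for each count of Hspd1 with DMSO and 0.156, 0.166 and 0.149 with SKI-II. The log2 ratio was -2.67 ± 0.033 (SD, n = 3) with DMSO and -2.67 ± 0.075 (SD, n = 3) with SKI-II, and the difference was within the spread (exact permutation test, two-sided, p = 1.0, where 0.1 is the smallest p that 3 against 3 libraries allow). With each library left out in turn the difference of the log2 ratios lay between -0.040 and 0.034. The processed pseudogenes of these genes took few reads. The 4 annotated for Hspd1 summed to 28 to 65 counts per library, which is 0.404% to 0.483% of the count of Hspd1, and the 5 for Hspe1 summed to 0 to 2 counts. Reads that match a gene and its pseudogene equally could still have been lost in the counting, whose settings are unknown here.

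Hspa9 encodes mortalin, the Hsp70 of the matrix. It held 16472, 19502 and 20641 normalized counts with DMSO and 16737, 18104 and 18798 with SKI-II, and the groups overlapped. The log2 fold change was -0.078 (SE 0.15, 95% CI -0.40 to 0.25, adjusted p = 0.708). The value fitted for Hspd1, -0.65, lies outside this interval. The interval of Hspd1 itself reaches -0.35, and the 2 genes were not tested against each other. Dnaja3 encodes TID1, a J-domain partner that stimulates the ATPase of mortalin. It held 2029, 2549 and 2757 normalized counts with DMSO and 2089, 2543 and 3089 with SKI-II. Its groups overlapped too, with a log2 fold change of 0.075 (SE 0.17, 95% CI -0.30 to 0.45, adjusted p = 0.758), whose sign turned on leaving out DMSO replicate 1 (-0.058) or replicate 3 of SKI-II (-0.079). DMSO replicate 1 was the lowest of its group for both genes.

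Trap1 encodes the Hsp90 of mitochondria, which acts with clients of the respiratory chain. It lies on chromosome 16 (4039971 to 4077827, minus strand, GRCm38). It held 2851, 3045 and 3282 normalized counts with DMSO and 1759, 2013 and 2156 with SKI-II. The groups did not overlap, and the log2 fold change was -0.63 (SE 0.12, 95% CI -0.90 to -0.36, adjusted p = 0.0031).

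Lonp1 encodes the ATP-dependent protease LONP1, which degrades oxidized and misfolded matrix proteins. It lies on chromosome 17 (56614297 to 56626887, minus strand, GRCm38). It held 8242, 10902 and 11575 normalized counts with DMSO and 19334, 17689 and 21009 with SKI-II. The lowest SKI-II library was well above the highest DMSO library. The log2 fold change was 0.92 (SE 0.16, 95% CI 0.55 to 1.28, adjusted p = 0.00195). It was 0.77 without DMSO replicate 1, the lowest library, and 1.01 without DMSO replicate 3. The promoter window of Lonp1 is shown because Lonp1 was the member protease that rose. The capitals mark matches to the core of the antioxidant response element, TGACNNNGC on either strand with N for any base, the kind of site that Nrf2 binds.
Lonp1 promoter window, chr17:56626854-56627153, minus strand, GRCm38.p6, RefSeq: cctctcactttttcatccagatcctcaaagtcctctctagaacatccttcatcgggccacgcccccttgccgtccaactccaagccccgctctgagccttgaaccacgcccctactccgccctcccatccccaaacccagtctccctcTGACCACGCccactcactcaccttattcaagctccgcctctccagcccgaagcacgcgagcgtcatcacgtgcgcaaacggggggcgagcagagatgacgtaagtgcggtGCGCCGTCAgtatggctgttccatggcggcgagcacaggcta
The 2 matches began at bases -102 and 8 from the start site, and Lonp1 was the only member of the 8 with such a match. A match to these letters was common, in 12.4% of all promoter windows. The core of the C/EBP-ATF response element, TGATGNAA on either strand, bound by ATF4 with a C/EBP partner, was in 3.97% of all windows and in none of the windows of the 8 members.

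Clpp and Clpx encode the peptidase and the unfoldase of the other large matrix protease. Clpp held 733, 905 and 982 normalized counts with DMSO and 801, 765 and 1003 with SKI-II, with overlap between the groups. Its log2 fold change was -0.027 (SE 0.16, 95% CI -0.38 to 0.32, adjusted p = 0.909), and its sign turned when DMSO replicate 3 (0.064) was left out, and also without replicate 1 (0.012) or replicate 2 (0.050) of SKI-II. Clpx held 826, 878 and 948 normalized counts with DMSO and 667, 727 and 815 with SKI-II. Its groups did not overlap, but the gap between them was small and the log2 fold change of -0.26 did not pass the test (SE 0.13, 95% CI -0.55 to 0.026, adjusted p = 0.137). The proportion of the protease RNAs also differed. Lonp1 had 11.2, 12.1 and 11.8 counts for each count of Clpp with DMSO and 24.1, 23.1 and 20.9 with SKI-II. This ratio was chosen after its values were seen and is given as a description.

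Htra2 encodes a serine protease of the intermembrane space, also known as Omi, which binds inhibitors of apoptosis when it is released to the cytosol. It lies on chromosome 6 (83051266 to 83055273, minus strand, GRCm38). It held 2606, 2901 and 2505 normalized counts with DMSO and 1390, 1631 and 1987 with SKI-II. The groups did not overlap, and the log2 fold change of -0.68 was the lowest of the 10 (SE 0.15, 95% CI -1.002 to -0.35, adjusted p = 0.00526). The annotated exons of Htra2 share 753 bases with Aup1 and 535 with Loxl3, both on the opposite strand. Whether reads were counted by strand is unknown here, which makes the reads of these bases uncertain. Aup1 had 1978 to 2543 counts with DMSO and 3019 to 4064 with SKI-II, and Loxl3 had 376 to 540 and 242 to 411. The exons of Trap1, Atf5 and Dnaja3 share at most 160 bases with any other gene.

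Atf5 encodes the transcription factor ATF5. It lies on chromosome 7 (44812256 to 44816658, minus strand, GRCm38). It held 929, 847 and 946 normalized counts with DMSO and 2079, 2609 and 1584 with SKI-II. The DMSO libraries lay close together, the SKI-II libraries were spread widely, and the lowest of them was still above every DMSO library. The log2 fold change of 1.20 was the largest of the 10 (SE 0.17, 95% CI 0.82 to 1.59, adjusted p = 0.000617). It was 1.01 without SKI-II replicate 2 and 1.37 without SKI-II replicate 3. RefSeq gives 2 start sites for Atf5, at 44816658 and 44815658. The window of the first is shown beside that of Lonp1 because both genes rose, and no base is in capitals because none of the 3 motifs matched in either window.
Atf5 promoter window, chr7:44816609-44816908, minus strand, GRCm38.p6, RefSeq: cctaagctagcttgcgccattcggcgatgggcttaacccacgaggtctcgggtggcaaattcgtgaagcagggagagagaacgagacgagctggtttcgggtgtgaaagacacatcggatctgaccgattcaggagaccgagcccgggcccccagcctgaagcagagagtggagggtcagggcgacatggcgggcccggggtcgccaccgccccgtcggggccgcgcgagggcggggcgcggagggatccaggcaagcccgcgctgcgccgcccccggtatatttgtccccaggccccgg

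**Figure D2:**
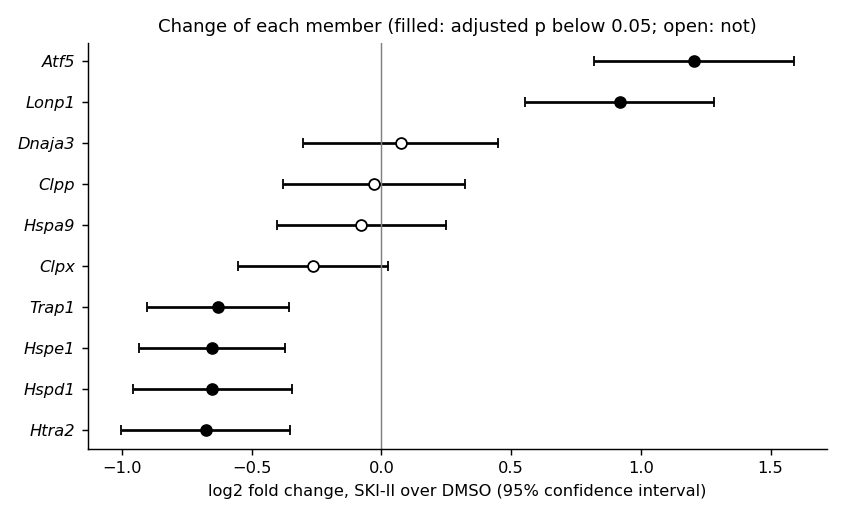
Fitted log2 fold change of SKI-II over DMSO (x axis) for each of the 10 genes (y axis, ordered by value), with the 95% confidence interval as a line. Filled points passed an adjusted p of 0.05, with Atf5 and Lonp1 to the right of 0 and Trap1, Hspe1, Hspd1 and Htra2 between -0.63 and -0.68, while the intervals of the 4 open points include 0.

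Levels of different genes were compared per length, as normalized counts per kb of annotated exon. With DMSO, Hspd1 was the most abundant member at 5099 ± 144 (SD, n = 3), followed by Hspa9 at 4379 ± 500 (SD, n = 3) and Lonp1 at 2341 ± 403 (SD, n = 3). Hspe1 stood at 1434, Trap1 at 1189, Htra2 at 907, Clpp at 714, Dnaja3 at 625, Atf5 at 455 and Clpx at 253. Clpp and Dnaja3 were the only neighbours in this order whose libraries overlapped. With SKI-II, on this length, Lonp1 stood at 4423 ± 380 (SD, n = 3) beside Hspa9 at 4148 ± 243 (SD, n = 3), with overlapping libraries, and Hspd1 was below both at 3245 ± 386 (SD, n = 3). Atf5 moved from the 9th place to the 4th at 1049 ± 257 (SD, n = 3), with libraries that overlapped those of Hspe1 at 913. From there the levels of Hspe1, Trap1, Clpp and Dnaja3 each overlapped the next in order, down to Htra2 at 567, and Clpx was last, without overlap, at 211 ± 21.3 (SD, n = 3). The order depends on the length used. Per kb of coding sequence Hspa9 was first in both groups, at 9264 with DMSO and 8778 with SKI-II, and with SKI-II it lay above Lonp1 at 6795 without overlap. On that length Hspd1 and Hspe1 followed Hspa9 with DMSO, and Lonp1 moved from the 4th place to the 2nd with SKI-II. Hspe1 has 306 coding bases of 1474 exonic bases.

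**Figure D3:**
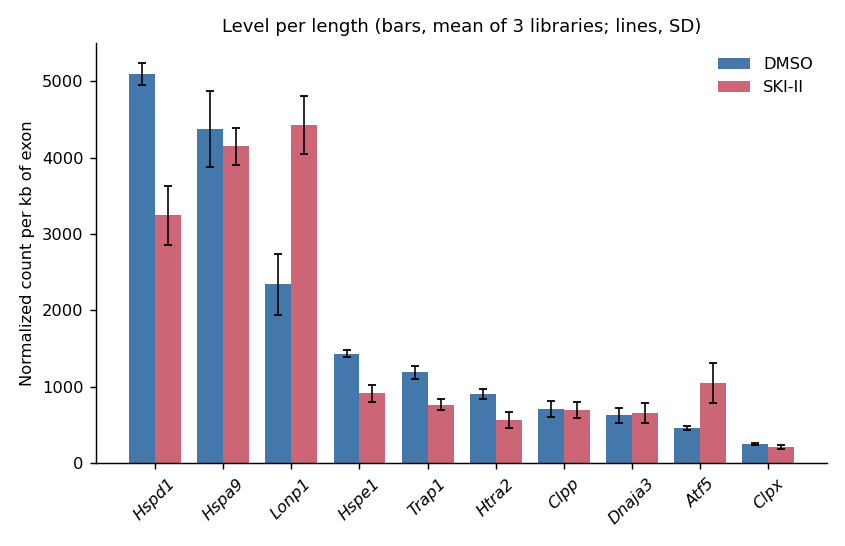
Normalized count per kb of exon (y axis, from 0) for each member (x axis, ordered by the DMSO level), as the mean of 3 libraries with SD. The bar of Lonp1 rises from 2341 to 4423 and that of Hspd1 falls from 5099 to 3245, while Hspa9 stays near 4148 to 4379.

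Among the libraries of a group, the members often stood in the same order. The share of all tested genes in that order was not taken, so the order is not given as a trait of the members. DMSO replicate 3 was the highest DMSO library for 9 of the 10 members and DMSO replicate 1 the lowest for 7, and SKI-II replicate 3 was the highest SKI-II library for 8 and SKI-II replicate 1 the lowest for 7. The called directions held without any of these libraries.

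The chaperones of mitochondria have relatives in the endoplasmic reticulum (ER) and the cytosol, and these were set beside them. Hspa5, the Hsp70 of the ER known as BiP, rose by 2.67 on the log2 scale (SE 0.22, adjusted p = 3.18e-05), while Hspa9 did not pass the test. For each count of Hspa5 there were 0.789, 1.01 and 0.767 counts of Hspa9 with DMSO and 0.0938, 0.142 and 0.157 with SKI-II. The difference of the log2 ratios was -2.73 (exact permutation test, two-sided, p = 0.1, the smallest p possible here), with every SKI-II library below every DMSO library. Hsp90b1, the Hsp90 of the ER, rose by 0.64 on the log2 scale (SE 0.19, adjusted p = 0.0246), against the fall of Trap1. The ratio of Trap1 to Hsp90b1 was 0.126, 0.156 and 0.150 with DMSO and 0.0414, 0.0637 and 0.0824 with SKI-II, a difference of -1.25 on the log2 scale (exact permutation test, two-sided, p = 0.1). Of the 7 ER chaperones and partners listed, 6 were higher (85.7%) and none was lower, against 18.4% and 19.7% of all tested genes.

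**Figure D4:**
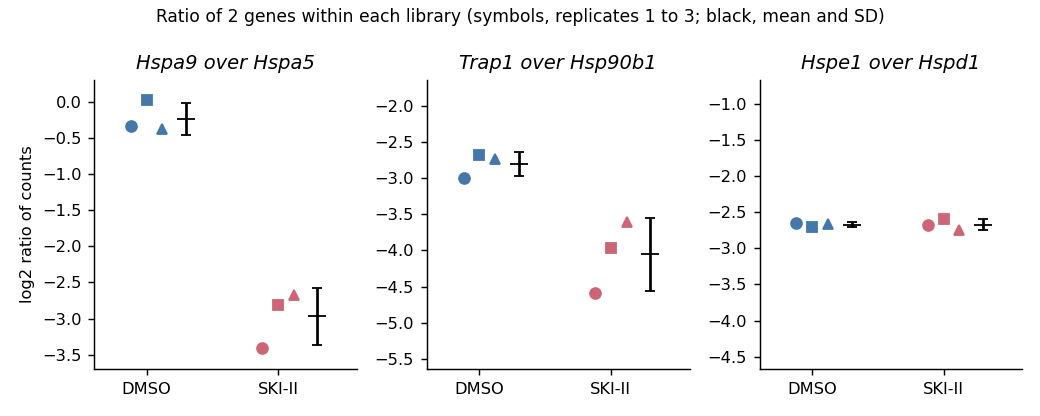
log2 ratio of the counts of 2 genes within a library (y axes, each spanning 4 log2 units) for the 3 DMSO and 3 SKI-II libraries (x axis), with the mean and SD in black. Hspa9 over Hspa5 drops by 2.73 and Trap1 over Hsp90b1 by 1.25, while Hspe1 over Hspd1 stays at -2.67.

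In the cytosol, the chaperonin CCT, a relative of Hsp60, also fell. All 8 subunits of CCT, from Tcp1 to Cct8, were lower at an adjusted p below 0.05, against 19.7% of all tested genes, with log2 fold changes between -0.72 (Cct4) and -0.41 (Cct3) and a median of -0.59. Of the 9 other cytosolic chaperones and partners listed, 8 were tested, with a median log2 fold change of 0.14. Of these, 1 was higher (12.5%) and 2 were lower (25.0%), against 18.4% and 19.7% of all tested genes, and 5 were not called. Hsp90ab1, the constitutive cytosolic Hsp90, fell by 0.85 on the log2 scale (SE 0.15, adjusted p = 0.00209). Hspa4, a nucleotide exchange factor of cytosolic Hsp70, was the other gene that fell, by 0.40 (adjusted p = 0.0261). The log2 fold change of Hspa8, the constitutive cytosolic Hsp70, was -0.34 (SE 0.19, adjusted p = 0.197), and Hsp90aa1, the inducible Hsp90, had 0.062 (SE 0.17, adjusted p = 0.799). The co-chaperones Hsph1, Dnaja1 and Dnajb1, also not called, had log2 fold changes of 0.39, 0.36 and 0.22 (adjusted p = 0.0773, 0.129 and 0.323). The heat-inducible Hspa1b rose from a mean of 12.7 (SD 11.7, n = 3) to a mean of 128 (SD 84.1, n = 3) normalized counts, by 3.27 on the log2 scale (SE 0.74, adjusted p = 0.00619), at a low level and with reads that can be shared with the near-identical Hspa1a.

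A list of 22 other genes of mitochondrial protein quality control held 9 lower (40.9%) and 3 higher (13.6%) genes, against 19.7% and 18.4% of all tested genes, with a median log2 fold change of -0.28. Mipep, a peptidase that trims imported precursors, fell from a mean of 1019 (SD 186, n = 3) to a mean of 410 (SD 75.1, n = 3) normalized counts, by 1.31 on the log2 scale (SE 0.18, adjusted p = 0.000447). The prohibitins Phb and Phb2, which form ring complexes in the inner membrane and bind its proteases, fell by 0.97 and 0.96 on the log2 scale (adjusted p = 0.0017 and 0.00106). The genes that rose were Immp1l, a subunit of the inner membrane peptidase, by 0.66, Grpel2, a nucleotide exchange factor of mortalin, by 0.55, and Hscb, a J-protein of iron-sulfur cluster assembly, by 0.53 (adjusted p = 0.0164, 0.0323 and 0.0463).

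Among 32 genes of mitochondrial protein import, the translocases through which the members' own precursors pass, 10 were lower (31.2%, against 19.7% of all tested genes) and none was higher (18.4% of all tested genes), with a median log2 fold change of -0.24. The largest falls were those of Tomm6 (-0.90), Tomm40l (-0.74) and Tomm70a (-0.71), all of the outer membrane translocase or its relatives, with adjusted p of 0.0209, 0.0088 and 0.00173. Tomm6 had only 53 to 139 counts per library, and its exons overlap those of 3 other genes.

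Among 18 genes of signalling in mitochondrial stress, 3 were higher (16.7%) and 5 lower (27.8%), against 18.4% and 19.7% of all tested genes, so that the share that was higher was near that of all genes. Their median log2 fold change was 0.21. The list is not particular to mitochondria. It holds Atf4 and Eif2ak3, the gene of PERK, and the paper places PERK and ATF4 in a branch of the ER stress response. Ddit3, which encodes CHOP, held 2484 ± 1174 normalized counts (SD, n = 3) with DMSO and 7924 ± 2819 (SD, n = 3) with SKI-II, and rose by 1.67 on the log2 scale (SE 0.36, adjusted p = 0.00552). Cebpb, a C/EBP factor that can pair with ATF4 or CHOP, rose by 1.11 (SE 0.14, adjusted p = 0.000246), and Atf4 by 0.41 (SE 0.14, adjusted p = 0.0412). Atf5 RNA thus rose more than that of Atf4. There were 0.145, 0.108 and 0.121 counts of Atf5 for each count of Atf4 with DMSO and 0.215, 0.247 and 0.175 with SKI-II, a ratio also chosen after its values were seen. On the lower side were Eif2ak2 (-1.08), which encodes the kinase PKR, Foxo3 (-0.63) and Dele1 (-0.57), whose protein relays mitochondrial stress to the kinase HRI, with adjusted p of 0.00312, 0.0383 and 0.0114.

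Of 15 known targets of this stress signalling, which is shared with ER stress, 14 could be tested. They moved both ways, with 6 higher (42.9%) and 4 lower (28.6%), against 18.4% and 19.7% of all tested genes. The median log2 fold change was 0.32, and which kind of stress moved these genes was not tested. Aldh1l2, a mitochondrial folate enzyme, rose by 2.64 on the log2 scale (adjusted p = 7.89e-06), Trib3, a pseudokinase induced by ATF4 and CHOP, by 1.67 (adjusted p = 0.000714) and Ddit4, an inhibitor of mTORC1 signalling, by 1.29 (adjusted p = 0.00548). Psat1, an enzyme of serine synthesis, fell by 0.98, Sod2, the superoxide dismutase of the matrix, by 0.92 and Mthfd2, another mitochondrial folate enzyme, by 0.58 (adjusted p = 0.00166, 0.00255 and 0.00998). Fgf21, a secreted hormone of mitochondrial stress, had no counts in any library. Over the 86 tested genes of these 4 lists, 28 (32.6%) were lower and 12 (14.0%) higher, against 19.7% and 18.4% of all tested genes, and the median log2 fold change was -0.17. Without DMSO replicate 2, 18 were lower and 8 higher, against 14% and 12% of all tested genes in that fit.

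**Figure D5:**
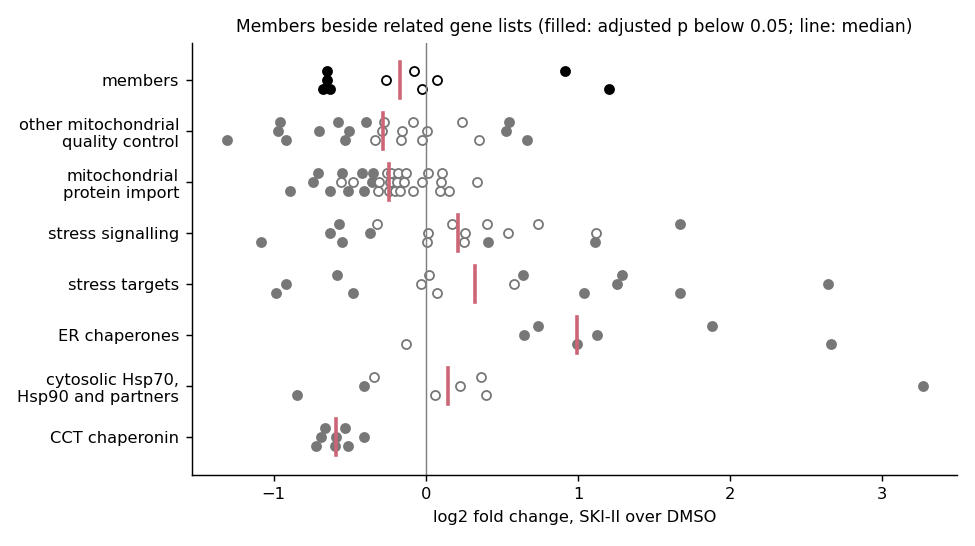
Fitted log2 fold change (x axis) of each tested gene in the members and 7 related lists (y axis), filled where the adjusted p was below 0.05, with a line at the median of each list. The members lie on both sides of 0, the import and CCT lists have their filled points to the left, and 6 of 7 ER chaperones lie to the right.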

How the data were processed

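RNA-seq libraries of RAW264.7 cells, 3 with SKI-II and 3 with DMSO, were compared. Groups and replicate numbers came from the sample titles. The table used here holds raw counts per Ensembl gene as deposited, and the authors' normalized values were not used here. The submitters' processing notes name Trimmomatic 0.36, STAR 2.5.2b, featureCounts, Subread 1.5.2 and DESeq2, with no settings. The build and annotation behind the counts was not given in the sources used here, nor was the strandedness of counting. Names, positions and exon lengths came from GENCODE M21 (GRCm38), which named 48970 of 49315 genes, and promoter windows from RefSeq (GRCm38.p6).

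Counts were filtered by group with edgeR 4.0.16 defaults (a minimum count of 10 and total of 15), scaled with TMM factors and tested with the quasi-likelihood F test in R 4.3.3, with Benjamini-Hochberg adjustment over the 12274 genes kept. Standard errors came from the fitted weights and the moderated dispersion. The code was tested on simulated data. DESeq2 1.42.0, limma-voom (limma 3.58.1), other scalings and filters, each library left out and a replicate block were alternatives. No 2 libraries of a group differed by as little as sampling noise (chi-square over its degrees of freedom, 15.4 to 58.1).

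Genes named are the members, the 3 called genes with the largest change in each direction of every related list, and set counterparts in the ER and cytosol. Hspa4, Hsph1, Dnaja1, Dnajb1 and Fgf21, outside this rule, were named after their values were seen. Cell type markers came from a list, and overlapping genes from the annotation. The members and lists were chosen with earlier results of these data known. Ratios were tested by exact permutation with SciPy 1.17.1. Figures were drawn with matplotlib 3.10.9.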

Additional observations from a re-analysis of the deposited data

How the results depend on the processing

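The 6 called members kept their direction and stayed past the threshold in DESeq2, limma-voom, RLE scaling, library size alone, no filter, at least 10 counts in every library, the replicate block and with each library left out. Their adjusted p reached at most 0.0301, for Htra2. With a library left out, 2 members were higher and 4 lower each time, and 1 to 2 members were past a log2 fold change of 1, the second being Lonp1 without DMSO replicate 3. The related mitochondrial genes, 12 higher and 28 lower of 86 tested, ranged with a library left out from 8 to 14 higher and from 18 to 27 lower, with both lowest counts without DMSO replicate 2 (the cause was not tested).

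Among members that were not called, the sign turned for Dnaja3 (range -0.079 to 0.20 with a library left out) and Clpp (-0.16 to 0.064). The difference of Hspe1 and Hspd1 ranged from -0.040 to 0.034, that of Hspa9 and Hspa5 from -2.88 to -2.51, and that of Trap1 and Hsp90b1 from -1.48 to -0.98. With a library left out, the ratio tests cannot go below p = 0.2 as two-sided exact permutation tests. Same-numbered libraries correlated in their deviations from the group means at 0.246, 0.0099 and 0.458, and DMSO replicate 1 correlated more with SKI-II replicate 2 (0.296), so the numbers were not taken as pairs. With the replicate block the log2 fold changes were -0.66 for Hspd1, 0.93 for Lonp1 and 1.18 for Atf5, and no call of a member changed. The block called more of all tested genes, 22.5% higher and 23% lower, against 18.4% and 19.7% without it. Whether the numbers mark pairs was not settled. The cause of the turned signs was not tested.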
